A study of Mus musculus with 6 samples.

Results

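Trem2 and 9 further genes known as markers of Trem2-dependent phagocytes, the lipid-associated macrophages, were examined in mouse RPE/choroid, the pigment epithelium of the retina with the vascular layer under it, in RNA that the labels call poly(A). The set held Trem2, Tyrobp, Cd68, Gpnmb, Spp1, Cd9, Cd63, Lgals3, Cst7 and Fabp5. The genes were chosen by symbol, from marker knowledge and with results of the age comparison in these libraries already known. All 10 of the 10 symbols were found among the 33924 genes in the table. Libraries came from wild-type C57BL/6J animals, 3 in the young and 3 in the aged group, and a sample joined the scraped tissue of both eyes. No treatment or transgene is given for either group. By their titles the young group was 1 to 2 months old and the aged group 20 to 24 months old, while a separate age field puts the aged group at 22 to 24 months. The study's methods give the young group an age somewhat above that of the titles. Sex is labelled male in all 6 samples, but the study's methods speak of males and females. Each gene has 1 mean normalized count over the 6 libraries of both ages. The table holds no value per library, and its columns on the age comparison are the authors' own results and were not used. The levels below therefore describe young and aged tissue together, without an SD, and no difference between the ages was computed.

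Trem2 is a surface receptor of myeloid cells that binds lipids, lipoproteins and cell debris. It has no signalling tail of its own and signals through the adapter Tyrobp (DAP12), which recruits the kinase Syk. Phagocytes that engage this receptor are known to turn on genes for lysosomal degradation, lipid transport and secreted matrix proteins. Several of these genes are also active outside macrophages. Gpnmb, Cd63 and Cd9 are known in pigment cells and many other cell types, so a level in bulk RPE/choroid is not a level in macrophages. In such bulk tissue, the number of cells of a type and the RNA per cell cannot be told apart.

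The tissue carried the transcripts of its labelled source. Per kb of longest transcript, RPE markers reached mean normalized counts of 61154 for Rpe65, 47916 for Rlbp1 and 335233 for Ttr, with Best1 the lowest of the 7 RPE markers at 39.3. Macrophage markers were present too, from 12659 for C1qa, a complement subunit, to 29.99 for Lyve1. Transcripts known from other cells and tissues were also measured, with Tnnt3 of skeletal muscle at 39379, Hba-a2 of red cells at 64451 and Dcn of fibroblasts at 18042 on the same scale. Their part in the levels of the 10 genes was not tested. Lymphocyte markers were low. The 4 T cell markers lay between 0.943 (Cd3e) and 28.6 (Cd8a), and the 4 B and plasma cell markers between 15.4 (Cd79a) and 179 (Jchain). The mean normalized counts of all genes added up to 40816668, and the depth of single libraries is unknown.

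Together the 10 genes held 0.353% of all normalized counts, and Gpnmb alone supplied 57.6% of that. The means ran from 82853 normalized counts for Gpnmb to 91.2 for Cst7. In between, Spp1 had 18207, Fabp5 had 11737 and Lgals3 had 7689 normalized counts. Tyrobp (5611), Cd63 (5568), Cd9 (4922), Trem2 (4222) and Cd68 (3067) lay close together in mean normalized count, and whether neighbours in this order differ beyond the spread between mice could not be examined. The median over all 25517 genes with a mean above 0 was 212 normalized counts, and the smallest mean above 0 was 0.157. Cst7 was the only one of the 10 with a mean below that median.

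Levels of different genes were compared per length, and the choice of length mattered here. The study's methods derive counts from TPM values, which are already corrected for transcript length, so division by length may correct again. For 3 of the 10 genes, Trem2, Fabp5 and Cd63, the longest annotated transcript is a retained intron model, which is far longer than the mRNA that encodes the protein. For Trem2 it has 4784 bases, against 1088 bases for the longest protein-coding transcript. For Fabp5 these lengths are 3238 and 987 bases, and for Cd63 2894 and 1109 bases. Gpnmb, Spp1, Tyrobp, Lgals3, Cd9, Cd68 and Cst7 have a protein-coding transcript as their longest, so their values were the same on both scales. With the longest transcript, 9 of the 10 genes lay above the upper quartile of all genes, 450.0 normalized counts per kb, and Cst7 lay below it. The count was also 9 with the protein-coding transcript, where the quartile was 479.9. Both scales are given below for Trem2, Fabp5 and Cd63.

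**Figure D1:**
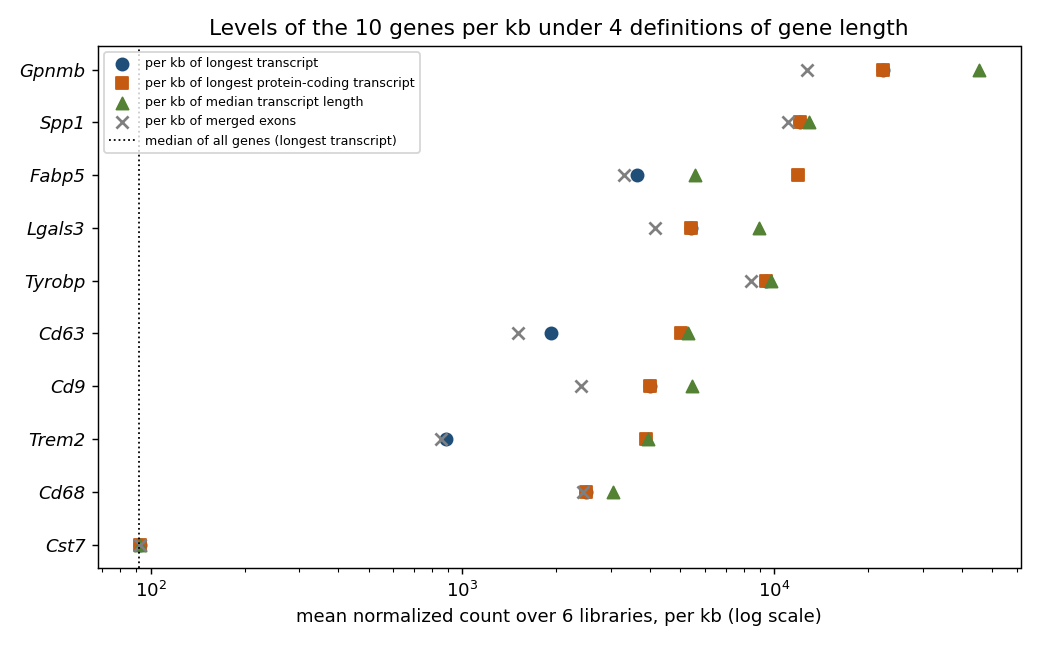
Each row is 1 gene and each point its mean normalized count over the 6 libraries divided by a gene length in kb, on a log axis, with 4 definitions of length. The dotted line is the median of all genes with a length (91.5 per kb of longest transcript). The points of Trem2, Fabp5, Cd63 and Gpnmb spread most with the length used. Gpnmb runs from 12719 per kb of merged exons to 45225 per kb of median transcript length. Cst7 sits at the median, and Gpnmb lies to the right of the other 9 genes under each length.

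Trem2, the receptor, had 883 normalized counts per kb of longest transcript, at percentile 85.1 of the 24041 genes with a mean above 0 and a length. Per kb of longest protein-coding transcript the level was 3881, at percentile 96.0. Trem2 (ENSMUSG00000023992) lies on the plus strand at chr17:48346401-48354147 of GRCm38, with 4 annotated transcripts, 2 of them protein-coding. Tyrobp, its adapter, had 9399 normalized counts per kb on both scales, at percentile 98.4 with the longest transcript. Tyrobp (ENSMUSG00000030579) lies on the plus strand at chr7:30413760-30417585. The level of the adapter per kb was thus 10.7 times that of the receptor with the longest transcript and 2.42 times with the protein-coding transcript. The adapter lay above the receptor under each of the 4 lengths. Tyrobp also serves other receptors than Trem2. Hcst (DAP10), the adapter encoded next to Tyrobp, had 198 normalized counts per kb, and Tyrobp was 47.4 times higher.

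The other 5 genes of the Trem family at its locus all lay below Trem2. Treml4 had 74.2 normalized counts per kb, Trem3 28.9, Treml2 17.6, Trem1, which amplifies inflammation in neutrophils and monocytes, 10.96, and Treml1, known from platelets, 8.30. These 5 values were the same on both length scales. Trem2 was 11.9 times Treml4 per kb of longest transcript and 52.3 times per kb of protein-coding transcript. No transcript word of 50 bases of Trem2 or Tyrobp occurs in another annotated gene, so their reads could be told from those of related genes.

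The genes that act below the receptor were measured at lower levels than the receptor complex. Of 12 signalling genes, 11 lay below Trem2 per kb of longest transcript and all 12 per kb of protein-coding transcript. Their median was 183 normalized counts per kb. Syk, the kinase that docks on Tyrobp, had 130, Plcg2, a phospholipase known to act downstream of it, had 145, and Inpp5d (SHIP1), a phosphatase known to restrain the pathway, had 167. The highest was Pik3r1, a regulatory subunit of PI3-kinase found in most cells, with 909, and the lowest was Btk with 44.7.

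Among the known ligands, Apoe, an apolipoprotein made by many cells of the eye and brain, had 198183 normalized counts per kb, and Clu (clusterin) had 34496. Apoe was 224 times Trem2 per kb of longest transcript and 51.1 times per kb of protein-coding transcript. The apolipoproteins Apoa1 and Apob, known from liver and intestine, were low, with mean normalized counts of 2.28 and 1.17. The proteases that shed Trem2 from the surface had 714 (Adam10) and 631 (Adam17) normalized counts per kb. Ms4a7, a membrane protein of the MS4A family in macrophages, had 1161 per kb of longest and 2657 per kb of protein-coding transcript. Ms4a4a was not analysed here.

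The membrane proteins of lysosomes and melanosomes among the 10 genes differed widely. Gpnmb, a glycoprotein of melanosomes, lysosomes and osteoclasts, had the highest level of the set with 22387 normalized counts per kb, at percentile 99.5 and rank 132 of all genes. Gpnmb (ENSMUSG00000029816) lies on the plus strand at chr6:49036546-49070929. Its level was 25.4 times that of Trem2 per kb of longest transcript and 5.77 times per kb of protein-coding transcript. On both scales it was 18.4 times that of Csf1r, the growth factor receptor of macrophages. It was above each of the 13 macrophage markers and below Pmel, its closest relative and the amyloid matrix protein of melanosomes, which had 62795. The pigment cell genes Mlana (28044), Tyrp1 (39758) and Dct (74294 per kb of longest transcript) were above Gpnmb, and Tyr (4287) and Mitf (1157), the transcription factor of pigment cells, were below it. How much of Gpnmb came from pigment cells and how much from macrophages was not tested.

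Cd68, a heavily glycosylated protein of macrophage lysosomes and the most used marker of phagocytes in tissue, had 2493 normalized counts per kb, at percentile 94.3. Cd68 (ENSMUSG00000018774) lies on the minus strand at chr11:69664213-69666153. The related lysosomal proteins Lamp1 and Lamp2, which nearly all cells contain, had 13689 and 5149. Lamp3 and Lamp5, known from dendritic cells and neurons, had 7.36 and 28.9. The order of Cd68 and Trem2 rested on the length used. Trem2 was 0.354 times Cd68 with the longest transcript and 1.56 times with the protein-coding transcript.

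The tetraspanins Cd63 and Cd9 organise membrane proteins, Cd63 in late endosomes, melanosomes and exosomes and Cd9 at the cell surface. Cd9 (ENSMUSG00000030342, minus strand, chr6:125460266-125494791) had 4008 normalized counts per kb. Cd63 (ENSMUSG00000025351, plus strand, chr10:128900989-128912822) had 1924 per kb of longest and 5020 per kb of protein-coding transcript, so that their order too rested on the length. Of 5 other tetraspanins, the broadly expressed Cd81 (10378), Cd82 (4804) and Cd151 (4215) lay above Cd9 per kb of longest transcript. The leukocyte tetraspanins Cd53 (1585) and Cd37 (93.4) lay below it. Cd9 shares 218 exonic bases with Gm26728, a noncoding gene on the opposite strand, and whether reads were counted by strand is not given in the sources used here.

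Of the secreted and cytosolic genes, Spp1 (osteopontin), a phosphoprotein of bone matrix that activated macrophages also secrete, had the second highest level of the 10 with 12081 normalized counts per kb. Spp1 (ENSMUSG00000029304) lies on the plus strand at chr5:104435118-104441050, where it shares 309 exonic bases with Gm42793, an unclassified transcript on the same strand. The other 4 members of its protein family, which build bone and dentin, were near 0, with mean normalized counts of 5.64 (Dmp1), 0.323 (Ibsp), 0.314 (Dspp) and 0.169 (Mepe). Genes of osteoclasts, in which Spp1 and Gpnmb are also known, were uneven. Ctsk had 2972 and Acp5 626 normalized counts per kb, while Mmp9 had 35.3 and the fusion genes Dcstamp and Ocstamp had 18.4 and 3.23.

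Lgals3 (galectin-3), a lectin that binds damaged lysosomes and has been described as a ligand of Trem2, had 5419 normalized counts per kb, at percentile 97.3. Lgals3 (ENSMUSG00000050335) lies on the plus strand at chr14:47367751-47386160. Lgals1 was higher with 16039, whereas Lgals8 (1174), Lgals4 (220) and Lgals9 (146) were lower. Cst7 (cystatin F), an inhibitor of lysosomal cathepsins that marks disease-associated microglia, had 92.5 normalized counts per kb, at percentile 50.1. Cst7 (ENSMUSG00000068129) lies on the plus strand at chr2:150570415-150578944. It was the lowest of the 10 under each of the 4 lengths. Its relatives Cst3, the secreted cystatin C, and Cstb had 209940 and 5425, and Cst6 had 117. The cathepsins were among the most abundant genes of the tissue, with 99016 for Ctsd, 36722 for Ctss, 14403 for Ctsb, 12986 for Ctsz and 6663 for Ctsl.

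Fabp5, a cytosolic carrier of fatty acids, had 3625 normalized counts per kb of longest and 11891 per kb of protein-coding transcript, at percentiles 96.0 and 98.7. Fabp5 (ENSMUSG00000027533) lies on the plus strand at chr3:10012548-10016607. On the protein-coding scale it was 3.55 times Fabp3, the form of heart and muscle, 5.88 times Fabp4, the form of fat cells, endothelium and macrophages, and 59.6 times Fabp7, the form of glia. With the longest transcript it was 1.08 times Fabp3, and with merged exons 0.983 times. Fabp1 of liver had a mean normalized count of 0.323, and Fabp2 of intestine was listed at 0.

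Part of the reads of Fabp5 may have been counted elsewhere, because its mRNA has processed copies in the genome. Gm6166, a pseudogene on the plus strand at chr9:57483963-57484371, was listed with 2082 normalized counts, which is 17.7% of Fabp5. Its sequence was 98.8% identical to the coding sequence of Fabp5, with 5 differences in 405 aligned bases and 1 gap. The first 150 coding bases of Fabp5 and the matching bases of Gm6166, from the GENCODE M21 transcripts of GRCm38, show how little there is to tell them apart. Capitals mark the 1 base at which they differ.
Fabp5: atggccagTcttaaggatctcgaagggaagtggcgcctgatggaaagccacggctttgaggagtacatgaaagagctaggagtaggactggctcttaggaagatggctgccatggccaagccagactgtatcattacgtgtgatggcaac
Gm6166: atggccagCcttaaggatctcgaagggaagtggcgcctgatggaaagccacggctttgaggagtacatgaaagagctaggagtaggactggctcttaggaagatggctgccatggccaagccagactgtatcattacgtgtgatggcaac
Within this stretch the other bases were the same in both.

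A second copy of Fabp5, Gm14328, was listed with 1366 normalized counts or 11.6% of Fabp5, and another, Fabp5l2, with 1.71. Of the 3611 words of 50 bases in Fabp5 transcripts, the retained intron model included, 94.5% occur in no other annotated gene. Cd63 had a copy with a larger share. The pseudogene Cd63-ps was listed with 3314 normalized counts, 59.5% of Cd63, and it shares 387 words of 50 bases with Cd63. The levels of Cd63 and Fabp5 are thus uncertain by the counts that the copies hold, and which of these counts came from the parent genes was not tested. By shared sequence alone, Cd9 had the lowest share of words found in no other gene, 85.6%, followed by Spp1 with 88.4% and Cd63 with 88.9%. Of the 287 shared words of Cd9, 169 occur in Gm26728, and all 212 shared words of Spp1 occur in Gm42793. No count was matched to either of these overlapping genes, so the levels of Cd9 and Spp1 are uncertain too, by an amount that was not tested. Gpnmb, Cd68, Lgals3 and Cst7 share at most 1 such word with another gene.

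**Figure D2:**
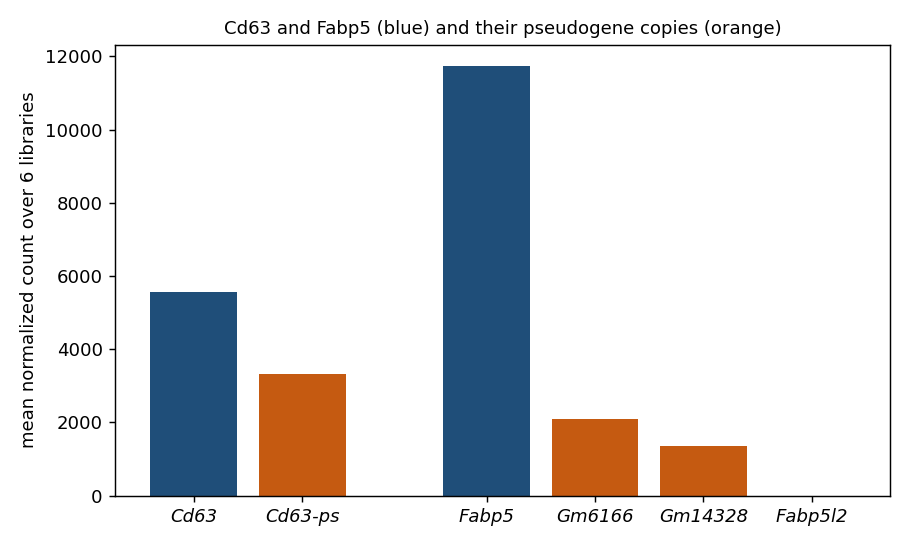
Bars are mean normalized counts over the 6 libraries, on an axis from 0, for Cd63 and Fabp5 (blue) and for the pseudogenes that share words of 50 bases with them (orange). Cd63-ps stands at 3314 beside 5568 for Cd63, and Gm6166 and Gm14328 stand at 2082 and 1366 beside 11737 for Fabp5.

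The lipid-handling and other phagocyte genes were spread widely on both sides of Trem2. Of 12 lipid-handling genes, Npc2, which carries cholesterol out of lysosomes, was the highest with 9018 normalized counts per kb of longest transcript. Plin2, the coat of lipid droplets, had 2976, Lipa, the lysosomal acid lipase, had 2177, Lpl, the lipoprotein lipase, had 469, and Ch25h was the lowest with 143. Trem2 was above 8 of the 12 with the longest transcript and above 11 with the protein-coding transcript. Of 15 further markers of Trem2-dependent phagocytes, 10 lay above Trem2 on the first scale and 7 on the second. Lyz2, the lysozyme of macrophages, had 92625, Clec7a, a receptor for fungal glucans, had 2208, Axl, a receptor for dying cells, had 970, Itgax (CD11c) had 356, and the chemokine Ccl3 had 75.6 as the lowest.

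Among genes of resting microglia, Fcrls had 786 and Tmem119 had 660 normalized counts per kb, both below Trem2 on both length scales. P2ry12 (111), Siglech (26.5) and Sall1 (3.39), all in use as markers of microglia, were the lowest 3. Of the 13 macrophage markers, Trem2 was above 7 with the longest transcript and above 10 with the protein-coding transcript. Those above it on both scales were C1qa (12659), C1qb (7152) and C1qc (7308), the subunits of the complement protein that opens the classical pathway. Mrc1 (512) and Cd163 (46.7), receptors of perivascular macrophages, were below it on both.

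**Figure D3:**
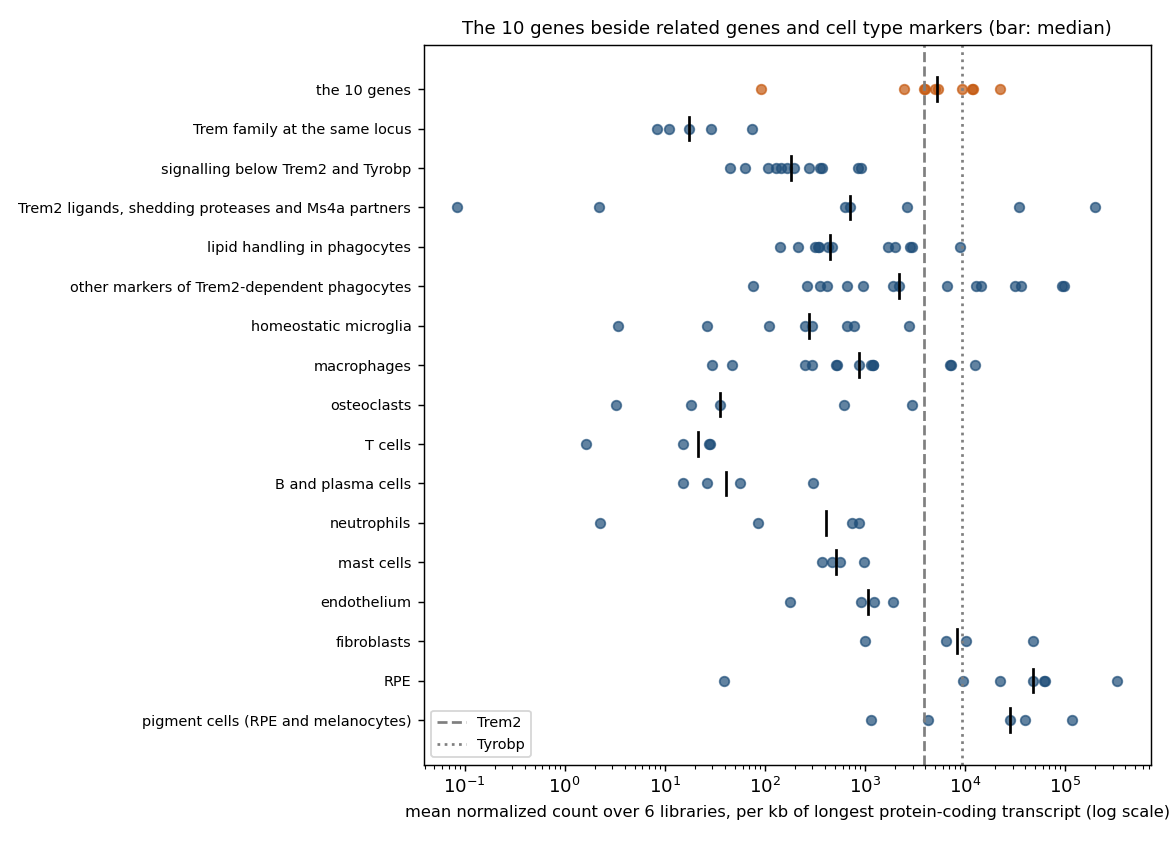
Each point is 1 gene with a level above 0, placed by its mean normalized count per kb of longest protein-coding transcript on a log axis, and each row is a list of genes with a bar at its median. The dashed and dotted lines mark Trem2 (3881) and Tyrobp (9399). The Trem family, signalling, microglia, osteoclast, T cell, B and plasma cell, neutrophil, mast cell and endothelium rows lie wholly left of Trem2. The RPE, pigment cell and fibroblast rows lie mostly right of it.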

How the data were processed

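RNA of RPE/choroid from 3 young and 3 aged mice was sequenced. The labels give poly(A) RNA as the molecule, but their protocol names a kit that removes ribosomal RNA and a stranded kit for total RNA. The study's text says that ribosomal RNA was depleted and poly(A) RNA selected, without naming the reagents of the selection. In the study's methods, reads were trimmed (BBDuk) and aligned (STAR, GRCm38 transcripts). TPM values, which are already corrected for transcript length, were obtained with Sailfish and turned by the authors into counts normalized by library total. The methods do not state whether the deposited means rest on these values. The signal used here is the deposited mean normalized count of each gene over all 6 libraries, as the authors' DESeq2 run wrote it. The other 5 columns hold the authors' fold changes, standard errors, test statistics and p-values for age and were not used, so no test was run. The planned age comparison needs values per library.

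Means were divided by gene length from GENCODE M21 (GRCm38), matched by symbol (28553 genes) or synonym (2427 genes). The main length was the longest transcript. Alternatives were the median transcript, merged exons, other background genes and, added after the data were seen, the longest protein-coding transcript. A percentile is the percent of genes with a lower level per kb. Shared sequence was counted in words of 50 bases, on both strands. The code was tested on simulated data. The named genes are the 10 genes and members of lists by role and cell type, with the highest and lowest of each list except for values not reported here, and for copies the genes that share most words. The members and lists were chosen with earlier results of these data known. In the table, 25 symbols had been turned into dates. Hbb-bs and Hbb-bt were not analysed here. The software was matplotlib 3.10.9, scipy 1.17.1, pandas 2.3.3 and numpy 2.4.6 under Python 3.11.15.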

Additional observations from a re-analysis of the deposited data

How the results depend on the processing

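No paired analysis was possible because each gene has 1 mean over all libraries, and for that reason the age fit and leaving out a mouse were not run. The count of 9 of the 10 genes above the upper quartile of all genes per kb was 9 under each alternative. The ratio of Tyrobp to Trem2 per kb was 10.7 with the longest transcript, 2.42 with the longest protein-coding transcript, 2.48 with the median transcript and 9.85 with merged exons. By construction it follows the length given to Trem2. The percentile of Trem2 was 85.1 with the longest transcript, 96.0 with the longest protein-coding, 91.5 with the median transcript and 88.0 with merged exons. It was 80.0 among genes with a mean of at least 10, 83.0 among protein-coding genes and 83.3 among genes with a mean of at least 1. For Tyrobp these were 98.4, with 97.0 for the median transcript, 97.9 for a mean of at least 10, 98.8 for protein-coding genes and 98.2 for a mean of at least 1. Over all alternatives the percentile of Cst7 was between 33.3 and 53.7, and those of the other 7 genes between 89.1 and 99.7. A mean without replicates limits each level, since the spread between mice and the depth of single libraries are unknown. Each level, percentile and ratio per kb is also limited, because the study's methods derive counts from length-corrected TPM values. The deposited means may thus already be corrected for length, and division by kb would then correct again.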
